A study of Mus musculus with 3 samples.

Results

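The lower glycolysis genes are the 9 genes *Tpi1*, *Gapdh*, *Pgk1*, *Pgam1*, *Eno1*, *Eno3*, *Pkm*, *Ldha* and *Ldhb*, taken from 21829 protein-coding genes of the mouse annotation. They were examined for peaks of Ad4BP/SF-1, the orphan nuclear receptor also called NR5A1, in mouse Leydig cells. A gene was counted as having a peak when a peak overlapped its body, extended by 10 kb at both ends, and this was repeated with 50 kb. Leydig cells from the testes of 9-week-old male ICR mice, with the testes of 10 mice pooled, had been isolated on Percoll and cultured on dishes coated with type I collagen. A library was immunoprecipitated with the antibody to Ad4BP/SF-1 after treatment with vehicle and another after treatment with cAMP. The agent, dose and duration of the cAMP treatment are not given in the sources used here, and no file of the input DNA was used. Because each condition has 1 library, differences between the lists cannot be weighed against replicate error, and every comparison describes those libraries alone.

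Glycolysis splits glucose into pyruvate, and its lower part, from the triose phosphates to pyruvate and lactate, is where the pathway yields ATP and NADH. Lactate dehydrogenase reduces pyruvate to lactate and restores NAD+, which lets the pathway run on. Leydig cells make androgens from cholesterol, a synthesis that draws on acetyl-CoA, ATP and NADPH, and Ad4BP/SF-1 is the nuclear receptor that drives their steroidogenic genes. It binds DNA as a monomer at an extended half-site for which the 8-base consensus was taken as TCAAGGTC, with C allowed in place of T at the first and at the seventh base.

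The vehicle list held 5721 peaks and the cAMP list 4025. Each peak has a score given by the authors, the MACS value, which is the p-value of the peak as -log10 multiplied by 10, and the lowest scores were 50 and 50.01. Scores rise with sequencing depth, which is unknown for both libraries, so ranks and the share of the list that scored lower are given beside them. Peaks mark places enriched in the immunoprecipitate and not expression, so the cell type could not be checked by its markers. Of 10 Leydig marker genes, 5 had a peak within 10 kb in both lists, where 10.1% of all protein-coding genes did. For the other cell types of the testis, 1 of 6 Sertoli cell markers had a vehicle peak and 0 a cAMP peak, 0 of 6 germ cell markers had either, and 1 of 4 macrophage markers had both, beside 19.2% of all genes with a vehicle peak and 13.9% with a cAMP peak.

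Sequences are shown for the strongest member peak, which held no consensus word, and for the peaks that held one. The first is the stretch of the *Pgk1* promoter that lies inside the strongest peak of the group, 300 bases that end at the base before the transcription start site (TSS), from the mm10 genome at chrX:106186800-106187099 on the plus strand. Its capitals mark a GC box (CCGCCC, or GGGCGG on the other strand), 2 ACGTG words (the second read as CACGT on this strand) and a CCAAT box.
*Pgk1* promoter: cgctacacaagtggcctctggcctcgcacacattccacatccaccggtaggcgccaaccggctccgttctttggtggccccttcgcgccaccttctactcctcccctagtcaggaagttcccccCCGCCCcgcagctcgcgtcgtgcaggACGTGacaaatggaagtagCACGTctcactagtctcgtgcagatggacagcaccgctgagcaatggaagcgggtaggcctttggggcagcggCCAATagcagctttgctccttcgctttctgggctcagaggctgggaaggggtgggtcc

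The others are the consensus words within the member peaks inside the 10 kb window, with the word of the *Eno1* peaks farther upstream, whose place differed most between the lists among the member pairs. Words under the other peaks between 10 and 50 kb are not printed. Each is given in the direction of the word with 11 bases on either side, the capitals mark the 8 bases of the word, and the coordinates are those of the word in mm10.
*Gapdh* intron 2, chr6:125165152-125165159, minus strand: ccaaggagaccTCAAGGTCagcgctcggac
*Pgam1* intron 1, chr19:41912342-41912349, plus strand: gaacccgcttgTCAAGGTCaccccgttaag
*Pgam1* intron 1, second word, chr19:41912817-41912824, plus strand: gaaagatttgtCCAAGGTCatacaaaactt
*Pgam1* intron 1, downstream word, chr19:41915511-41915518, minus strand: gctttgtgagtTCAAGGTCaacctgacctc
*Pkm* intron 1, chr9:59664329-59664336, plus strand: agatggtaactTCAAGGTCagcctaggttg
*Ldha* intron 7, chr7:46854467-46854474, minus strand: acctcacaagtTCAAGGTCaggccagcagg
*Eno1* upstream, chr4:150209895-150209902, minus strand: gggtcagaagtTCAAGGTCacgctgggcta
Of the words printed, the second of *Pgam1* was CCAAGGTC and the rest were TCAAGGTC, and the 6 words at *Gapdh*, *Pgam1*, *Pkm* and *Ldha* lay in introns.

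Of the 9 genes, 6 had a vehicle peak within 10 kb, against 19.2% of all protein-coding genes. In the cAMP list 5 did, against 13.9%. The same 5 genes, *Pgk1*, *Pgam1*, *Pkm*, *Ldha* and *Ldhb*, had a peak in both lists, against 10.1% of all genes, and *Gapdh* had one only in the vehicle list, so that 6 genes had one in either list, against 23.1%. With the gene body alone the member counts were the same. The shares of all genes were then 12.6% for vehicle, 9.12% for cAMP, 6.4% for both and 15.3% for either. *Tpi1*, *Eno1* and *Eno3* had no peak within 10 kb in either list. With 50 kb at both ends, 7 genes had a vehicle peak, 8 a cAMP peak, 7 both and 8 either, beside 36.7%, 28.8%, 22.4% and 43.1% of all genes. A gene without a peak is one where none was called, which does not show that the site was unbound. The 9 genes were chosen with earlier results of these data known, so these counts are descriptions.

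Many of the member peaks lay at transcription start sites. By a rule added after the member peaks had been seen, 4 of the 9 genes, *Pgk1*, *Pgam1*, *Pkm* and *Ldhb*, had a vehicle peak centred within 1 kb of the TSS of their principal transcript, against 2.37% of all protein-coding genes. In the cAMP list 3 of them did, all but *Pkm*, against 1.33%. The count was 3 in both lists and 4 in either, beside 1.04% and 2.67% of all genes. Because the rule followed the sight of the peaks, these counts are descriptions. With any RefSeq start site in place of the principal one, *Gapdh* joined the vehicle genes and the count was 5, against 2.51% of the 16515 protein-coding genes with a RefSeq start site, whereas the cAMP count was still 3, against 1.44%.

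**Figure D1:**
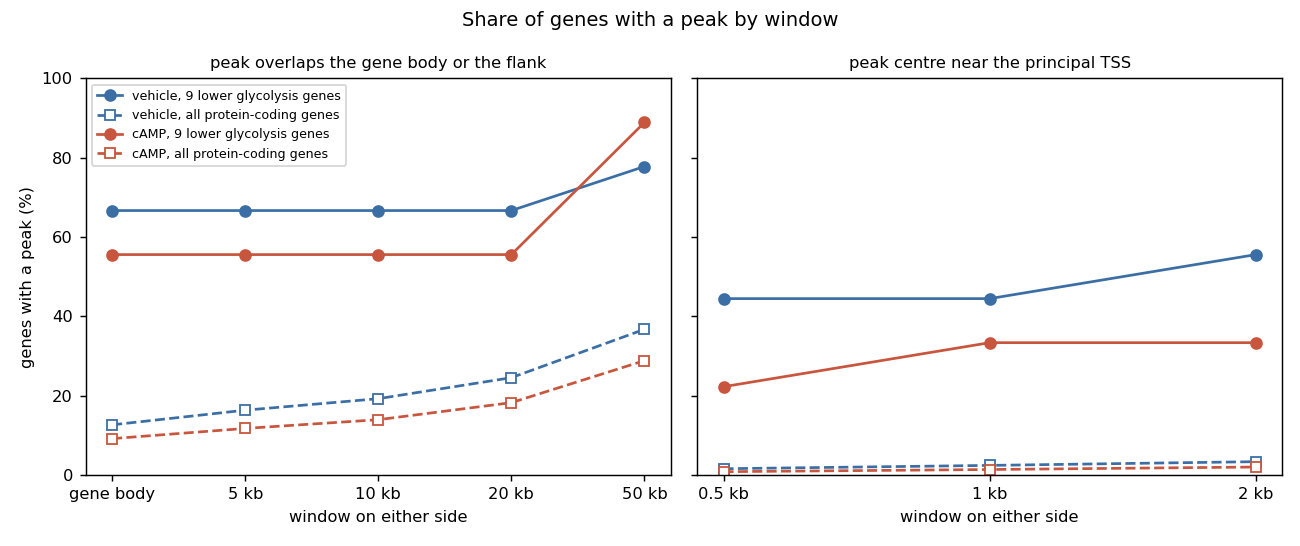
Share of genes (percent) with a peak, by window. The left panel counts a peak that overlaps the gene body or the flank, and the right panel a peak centred near the principal TSS. Filled circles joined by solid lines are the 9 lower glycolysis genes, open squares joined by dashed lines all 21829 protein-coding genes, in the vehicle (blue) and cAMP (red) lists. The member share lies above the share of all genes at every window drawn, but the windows are nested and count many of the same peaks. The 9 genes were chosen with earlier results of these data known. The TSS rule was added after the peaks had been seen, so both panels are descriptions.

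*Pgk1* encodes phosphoglycerate kinase, the enzyme of the first ATP-producing step of glycolysis. It is X-linked, and its promoter, which is active in most cell types, is widely used to drive genes in expression and targeting constructs. It held the strongest member peak. Neither reads nor input were used here, so whether DNA of such a construct added to this peak was not tested, and its score and rank are given with that limit. In the vehicle list the peak at chrX:106186625-106187311 scored 582.64 and ranked 13 among 5721 peaks, above 99.8% of the list. In the cAMP list the peak at chrX:106186622-106187313 scored 657.62 and ranked 3 of 4025, above 99.9% of the list. The centres were 132 bp and 133 bp upstream of the TSS, and the peaks reached into exon 1, across its 5′ untranslated part and its coding part. Among peaks centred within 1 kb of any protein-coding TSS, the *Pgk1* peak ranked 3 of 616 for vehicle and 1 of 351 for cAMP. It was also the highest of 34 and of 23 peaks on the X chromosome. By score per kb of width it ranked 10 and 5.

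The edges of the *Pgk1* peak in the vehicle list and its counterpart in the cAMP list differed by 3 bp on the left and 2 bp on the right. Of 2171 overlapping pairs of a vehicle and a cAMP peak, 5, this pair among them, had both edges within 3 bp, and the median over all pairs of the larger edge difference was 104 bp. The score of the *Pgk1* peak was 74.98 higher in the cAMP list, a rise larger than that of 94.7% of the pairs. Its place in the list hardly moved, since it was near the top of both. The rise in place was 0.15 percentile points, above the change of 55.9% of the pairs.

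The *Pgk1* peak held none of the letters looked for in an Ad4BP/SF-1 site. Both strands of the whole peak held 0 copies of the 8-base consensus, 0 copies of its last 7 bases and 0 copies of the nuclear receptor half-site AGGTCA. The consensus was found in 80.4% of all vehicle peaks and in 77.1% of all cAMP peaks, in 82.0% and 86.0% of the peaks within 1 kb of a TSS, and in 74.8% and 78.4% of the 278 and 134 peaks that cross one. Of the 50 highest-scoring peaks, 46 held it in each list. Among the 926 vehicle and 806 cAMP peaks with neither the consensus nor its last 7 bases, the *Pgk1* peak scored highest, and the next peak of that kind scored 438.03 with vehicle and 337.67 with cAMP. That these letters are not in the peak says nothing more about the receptor.

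Other short words were counted in the *Pgk1* peak of the vehicle list, on both strands and including overlapping copies. The GC box GGGCGG was found 5 times, ACGTG 4 times, GCGTG 1 time and CCAAT 1 time. The CRE half-site TGACG, the E-box CACGTG and TATAAA were each found 0 times. In the printed 300 bases the counts were 1 for GGGCGG, 2 for ACGTG, 0 for GCGTG and 1 for CCAAT, and the shares that follow are for windows of that width, narrower than the peak of 687 bp. Among the RefSeq promoters, windows from 250 bases before to 50 after each start site on the mm10 build, 35.7% held GGGCGG, 19.6% ACGTG, 32.4% GCGTG and 37.4% CCAAT. In the central 300 bases of the vehicle peaks within 1 kb of a TSS the shares were 34.7%, 27.3%, 37.8% and 28.9%. A GC box stands in the printed stretch and the other 4 follow the TSS. The peak had a GC content of 60.7%, above that of 95.7% of vehicle peaks, and a ratio of observed to expected CpG of 0.73. These values were close to the medians, 59.3% and 0.70, of the 278 vehicle peaks that cross a TSS.

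Part of the *Pgk1* peak is sequence that other places in the genome share. Upstream of the TSS, all 444 words of 32 bases in the vehicle peak occurred once in mm10 (100%), whereas of the 181 words from the TSS on 43.6% did. The authors kept only reads that mapped to a single position, and the part of this in the extent of the peak was not tested.

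**Figure D2:**
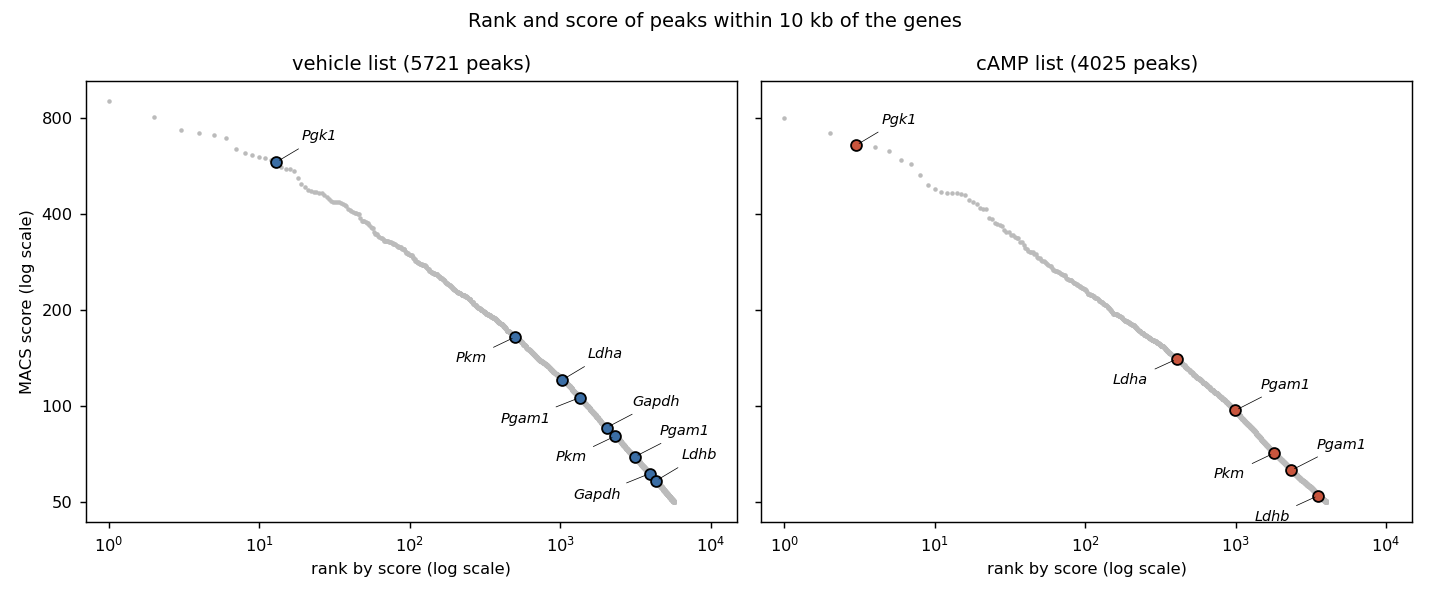
Score of each peak (log scale) against its rank by score (log scale) in the vehicle list (left) and the cAMP list (right). Grey points are all peaks, and coloured points the 9 vehicle and 6 cAMP peaks within 10 kb of the lower glycolysis genes. *Pgk1* stands at rank 13 and rank 3, and the next member peak is *Pkm* at rank 505 in the vehicle list and *Ldha* at rank 408 in the cAMP list.

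*Tpi1*, on chromosome 6, encodes triose phosphate isomerase, which interconverts the triose phosphates. It was the only member with no peak within 50 kb in either list, and the nearest vehicle and cAMP peaks lay 68574 bp and 56337 bp away. The 10 kb on either side and the gene body held 10 copies of the consensus, none of them under a peak.

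*Gapdh* encodes glyceraldehyde-3-phosphate dehydrogenase, which oxidizes glyceraldehyde 3-phosphate and yields NADH. It lies on the minus strand of chromosome 6. Its vehicle peak at chr6:125164885-125165349 scored 61.4, rank 3934, and was centred 1350 bp after the principal TSS in intron 2, with the consensus word printed above 38 bp from its centre. A second vehicle peak at chr6:125173305-125173823 scored 85.61, rank 2037, was centred 7097 bp upstream and held no copy of the consensus. Neither had a counterpart in the cAMP list, in which the nearest peaks were 28413 bp and 19939 bp away. The upstream peak was 6838 bp from the gene and so lay inside the 10 kb window.

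Beyond the 10 kb window, *Gapdh* had a pair of regions with a peak in both lists, each with the consensus. Downstream, near *Chd4*, the vehicle peak scored 76.1 and the cAMP peak 151.53, which are ranks 2602 and 341. Upstream, near *Mrpl51*, the vehicle peak scored 58.93 and the cAMP peak 70.92. In each of these regions the start site nearest to the peak was that of the neighbour and not that of *Gapdh*.

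*Pgam1*, on chromosome 19, encodes phosphoglycerate mutase, which moves the phosphate of 3-phosphoglycerate to the next carbon. Centred in its first intron were 2 vehicle peaks. The peak at chr19:41912102-41912544 scored 106.33, rank 1350, centred 400 bp after the TSS, and the peak at chr19:41912701-41913111 scored 69.33, rank 3129, centred 983 bp after it. Each held 1 of the first 2 consensus words printed for the gene. A single cAMP peak at chr19:41912164-41912934, score 96.9 and rank 996, overlapped both vehicle peaks and held both words. It touched coding exon 1, as did the first vehicle peak. Its place in its list differed by -1.15 percentile points from that of the first vehicle peak and by 29.98 points from that of the second. A second cAMP peak at chr19:41915298-41915654 scored 62.89, rank 2347, held the downstream word, touched coding exon 2 and had no counterpart, the nearest vehicle peak being 2187 bp away. Every peak within 10 kb of *Pgam1* therefore held a consensus word, and peaks of both lists did so close to the start site.

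The enolases *Eno1*, the broadly expressed form, and *Eno3*, the form of muscle, turn 2-phosphoglycerate into phosphoenolpyruvate. *Eno1* had no peak within 10 kb, although that window held 15 copies of the consensus. A region 26652 bp upstream of its gene body had a peak in both. The vehicle peak at chr4:150209561-150210069 scored 55.77, rank 4713, and the cAMP peak at chr4:150209575-150210069 scored 162.48, rank 274. Its place rose from above 17.6% of the vehicle list to above 93.2% of the cAMP list, a rise of 75.57 percentile points that exceeded that of 99.4% of all overlapping pairs. The nearest start site was that of *Car6*, a carbonic anhydrase gene, and the consensus word printed above lay 83 bp from the centre of the vehicle peak. *Eno3* had no vehicle peak within 50 kb, the nearest being 101842 bp away. Its only peak, in the cAMP list, at chr11:70626623-70627262, scored 66.76 at rank 2092, lay 29940 bp from the gene nearest to the start site of *Chrne*, and held 2 copies of the consensus.

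*Pkm*, on chromosome 9, encodes pyruvate kinase, which makes pyruvate and ATP from phosphoenolpyruvate. A vehicle peak at chr9:59656263-59656771 lay across the TSS, scored 80.55 at rank 2328 and held no consensus, but a copy of GCAAGGCC, which has the last 7 bases of the consensus. It had no counterpart, and the nearest cAMP peak was 7321 bp away. In intron 1, 7950 bp after the principal TSS and 484 bp from another *Pkm* start site, the vehicle peak at chr9:59663948-59664689 scored 164.94 at rank 505, the highest member peak of that list after *Pgk1*. The cAMP peak at chr9:59664092-59664614 scored 71.25 at rank 1807. The consensus word lay 14 bp and 21 bp from the centres of these peaks. The place of this region in its list fell by 36.07 percentile points, and 14.1% of overlapping pairs fell by more.

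*Ldha* encodes the lactate dehydrogenase subunit that predominates in muscle and in glycolytic cells. Its peak was centred in intron 7, at chr7:46854233-46854789 with a score of 120.95 at rank 1037 in the vehicle list and at chr7:46854096-46854615 with a score of 140.56 at rank 408 in the cAMP list, 8672 bp after the principal TSS for the vehicle peak, and the cAMP peak also touched coding exon 7. Its consensus word was within both peaks. The vehicle peak was 6692 bp from the start site of *Ldhc*, the testis-specific lactate dehydrogenase gene next to *Ldha*, so the same peak counts for both genes. A vehicle peak 11101 bp upstream of *Ldha*, just outside the 10 kb window, scored 52.99 at rank 5147, and held 2 copies of the consensus.

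*Ldhb* encodes the subunit that predominates in the heart. It lies on the minus strand of chromosome 6 and had the weakest peaks of the members with one within 10 kb in both lists. The vehicle peak at chr6:142507785-142508273 scored 58.27 at rank 4328, centred 72 bp upstream of the TSS, and the cAMP peak at chr6:142507832-142508308 scored 52.42 at rank 3559, centred 113 bp upstream. Both crossed the TSS, and neither held the consensus or its last 7 bases.

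**Figure D3:**
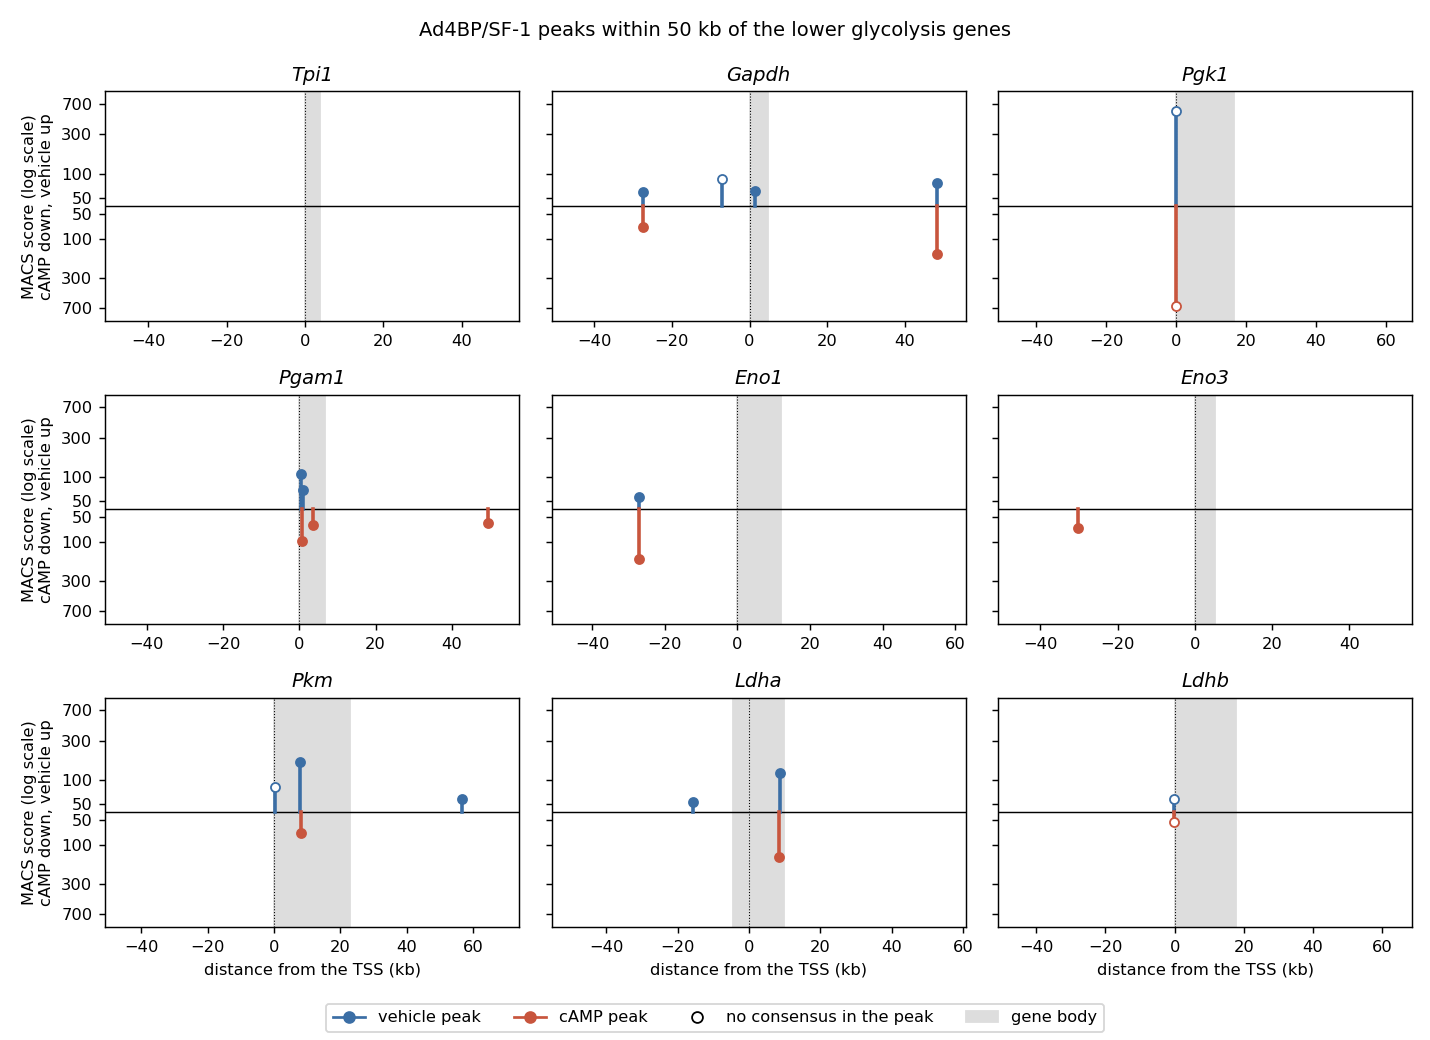
Peaks within 50 kb of each lower glycolysis gene, by distance from the principal TSS (kb, positive in the direction of transcription). The height is the MACS score on a log scale, vehicle (blue) up and cAMP (red) down, open circles are peaks without the consensus, and grey marks the gene body. *Tpi1* has no peak, the peaks of *Pgk1* and *Ldhb* lie at the TSS, and *Eno1* and *Eno3* have peaks outside the gene only.

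Among the 9 vehicle peaks within 10 kb, 5 held the consensus, against 80.4% of all vehicle peaks, and among the 6 cAMP peaks 4 did, against 77.1%. The member peaks without it were the peaks at the start sites of *Pgk1*, *Ldhb* and, in the vehicle list, *Pkm*, and the upstream peak of *Gapdh*. The peaks centred in introns of *Gapdh*, *Pgam1*, *Pkm* and *Ldha* all held it. No RefSeq promoter of the 9 genes, 13 windows in all, held the consensus, and 5.73% of all RefSeq promoters did. The gene bodies with 10 kb on either side held 81 copies of the consensus, of which 5 were under a vehicle peak and 5 under a cAMP peak. At the 4 copies around *Pgk1* there was no peak. In the genome, 1.24% of 487156 copies were within a vehicle peak and 0.831% within a cAMP peak.

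Of the 9 vehicle peaks, 6 had a counterpart in the cAMP list, and of the 6 cAMP peaks, 5 had one in the vehicle list, beside 37.9% and 53.8% of all peaks. The vehicle peaks without one were both of *Gapdh* and the *Pkm* peak at the TSS. The cAMP peak without one was the second of *Pgam1*. Both *Pgam1* vehicle peaks had the same counterpart. Of the member peaks, 7 of 9 and 4 of 6 were within 1 kb of a TSS, and of all such peaks 42.0% and 74.4% had a counterpart. With a reciprocal overlap of 50%, or with centres within 200 bp, the member counts were 4 of 9 and 4 of 6. Over all 2171 overlapping pairs, 38.9% scored higher in the cAMP list, with a median difference of -10.55. Of the 6 member pairs within 10 kb, those of *Pgk1* and *Ldha* and the second of *Pgam1* scored higher in the cAMP list, by 74.98, 19.61 and 27.57, and those of *Pkm* and *Ldhb* and the first of *Pgam1* scored lower, with differences of -93.69, -5.85 and -9.43. The 3 pairs between 10 and 50 kb, at *Eno1* and *Gapdh*, scored higher in the cAMP list, by 106.71, 75.43 and 11.99. The direction of the difference was therefore mixed across the genes.

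**Figure D4:**
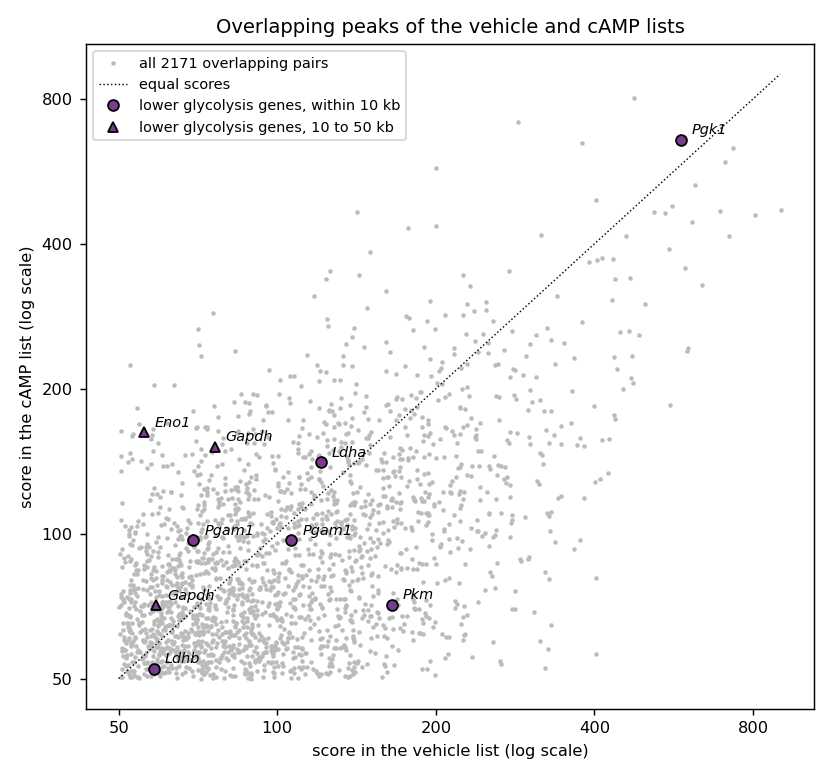
Score in the cAMP list against score in the vehicle list (both log scales) for all 2171 overlapping pairs (grey). Circles are pairs within 10 kb of a lower glycolysis gene, triangles pairs between 10 and 50 kb, and the dotted line marks equal scores. *Pgk1* stands at 582.64 and 657.62, *Pkm* below the line at 164.94 and 71.25, and *Eno1* above it at 55.77 and 162.48.

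Retrocopies of glycolytic genes are common in the mouse genome, and the authors removed reads with several positions. Of the words of 32 bases within exons of *Pgam1*, 3.21% occurred once in mm10, and of those within exons of *Gapdh* and *Pgk1* 4.08% and 7.28%. The median exon word of *Gapdh* had 62 copies, that of *Pgam1* and of *Pgk1* 3. For *Eno1* 24.8% of exon words were unique, for *Pkm* 39.9%, for *Ldha* 44.0%, for *Ldhb* 51.9%, for *Tpi1* 59.9% and for *Eno3* 100%. Outside exons, between 94.6% and 99.7% of the words of each gene were unique. The words are exact matches, whereas the authors allowed 3 mismatches, and the read length is not given in the sources used here. All member peaks within 10 kb were centred outside coding exons, but the share of all peaks centred there is not given here. The part of unmappable exons in this was not tested.

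**Figure D5:**
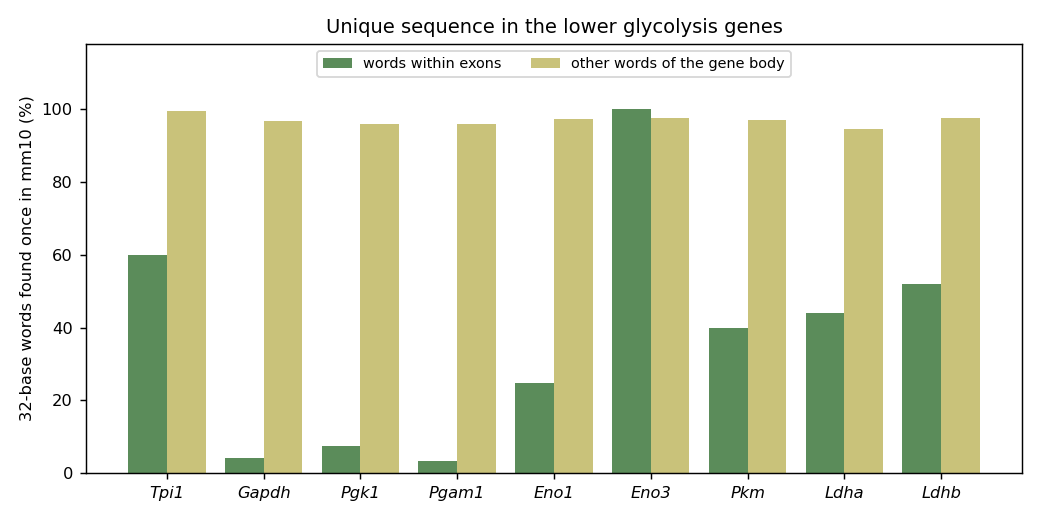
Share of 32-base words of each gene that occur once in mm10 (percent), for words within exons of the principal transcript (green) and for the other words of the gene body (yellow). Exon words are unique in 3.21% of cases in *Pgam1* and 100% in *Eno3*, and the other words in at least 94.6%.

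The other genes of the pathway were taken from lists chosen with results of these data known. Of 16 genes of upper glycolysis, 8 had a vehicle peak within 10 kb, 6 a cAMP peak and 5 both, beside 19.2%, 13.9% and 10.1% of all protein-coding genes. None (0 of 16) had one centred within 1 kb of the principal TSS, where 2.37% of all genes had a vehicle peak and 1.33% a cAMP peak, so a count of 0 is near the background. The peaks of *Aldoa* were 610 bp and 641 bp, and the cAMP peak of *Pfkm* 63 bp, from another start site of the gene. Of 9 isoenzymes of the lower steps, *Ldhc* alone had a vehicle peak, the one it shares with *Ldha*, against 19.2% of all genes, and 3 had a cAMP peak, against 13.9%, namely *Ldhc*, *Gapdhs*, the sperm form of the enzyme, with a score of 86.98, and *Eno2*, the neuronal enolase, with a score of 64.23. The highest score in these lists was that of *Aldoa*, aldolase A, which splits fructose bisphosphate just above the lower steps, with 433.45 at rank 35 in the vehicle list and 371.41 at rank 26 in the cAMP list, with 2 copies of the consensus under each peak.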

How the data were processed

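ChIP-seq for Ad4BP/SF-1 was performed by the authors on 1 vehicle-treated and 1 cAMP-treated library. They mapped reads to mm10 with Bowtie (version 0.12.8 in the submitters' processing notes), discarded reads with more than 3 mismatches or several positions, and ran MACS on each library. Whether the input served as control is not given in the sources used here. The stated p-value threshold of 0.001 equals a score of 30, but no deposited peak scored below 50. The deposited files hold positions and the MACS score, and no read numbers, so depth is unknown.

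Genes were those of GENCODE M21, with the principal transcript by APPRIS rank, and sequences came from mm10. Overlaps (at least 1 bp), words and ranks were obtained in Python 3.11.15 (pandas 2.3.3, numpy 2.4.6), tested on simulated data, and plotted with matplotlib 3.10.9. Word copies were counted on both strands. The 9 genes and all lists were chosen with earlier results of these data known. The named genes are the 9, with some of the listed genes of neighbouring steps that have a peak. Other listed genes with a peak are not named. *Car6*, *Chrne*, *Chd4* and *Mrpl51* are the nearest genes and were named after their values were seen. The alternatives were other windows, nearest-gene assignment, score minima of 75 and 100, equal list lengths, stricter overlaps, the central 200 bp, and score per kb. Start-site counts were added after the peaks had been seen.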

Additional observations from a re-analysis of the deposited data

How the results depend on the processing

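Of the 57 alternative values, 39 were within 1.5 times the main value, so that 6 against 4 counts as unmoved, and 18 were not. Members with a peak within 10 kb in the cAMP list (main value 5) numbered 8 with 50 kb, beside 28.8% of all genes. They numbered 3 with scores of at least 75 and 2 with at least 100. Those in both lists (5) numbered 3 and 2 at these scores. With scores of at least 100, members with a peak at the TSS fell from 4 to 2 in the vehicle list, from 3 to 1 in the cAMP list and from 3 to 1 in both. Vehicle peaks with a counterpart were 6 of 9, then 3 of 6 at 75 and 2 of 4 at 100, and with the consensus 5 of 9, then 3 of 6 and 3 of 4. The cAMP peaks with a counterpart were 5 of 6, then 3 of 3 and 2 of 2, and with the consensus 4 of 6, then 2 of 3 and 1 of 2, and 2 of 6 with the central 200 bp, since the words of the broad *Pgam1* peak and of the *Ldha* peak lie outside it. The score minima leave fewer peaks by construction, and the shares of all genes and of all peaks at these minima are not given here. Whether the members fell faster or slower than the rest was not tested. The *Pgk1* peak ranked 5 in the cAMP list by score per kb. No paired analysis was possible because each condition has 1 library. The depth of the libraries is unknown, so the part of depth in peaks called in a single list was not tested.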

Other observations

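Of 15 genes that handle pyruvate and lactate after the lower steps, 7 had a vehicle peak within 10 kb, 5 a cAMP peak and 5 both. The shares of all protein-coding genes were 19.2%, 13.9% and 10.1%. A vehicle peak was centred within 1 kb of the principal TSS at 3 of the 15, and a cAMP peak at 2. For that rule the shares of all genes were 2.37% and 1.33%. *Mpc1*, a subunit of the mitochondrial pyruvate carrier, had the highest score, 469.98 at rank 24 in the vehicle list and 210.08 at rank 131 in the cAMP list, 39 bp and 17 bp from its nearest start site and with 3 copies of the consensus under each peak. *Slc16a1*, the monocarboxylate transporter MCT1, had vehicle peaks only, with scores of 140.19 and 56.79. *Pdk1*, a kinase that inhibits pyruvate dehydrogenase, had a peak in intron 1 in both lists, with scores of 63.34 and 74.89. *Pfkl*, the liver form of phosphofructokinase of the upper steps, had an upstream peak with scores of 147.52 and 192.99 and a second vehicle peak with a score of 122.71.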
